A study of Homo sapiens with 11 samples.

Results

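The regions described here are intervals of trimethylated histone H4 lysine 20 (H4K20me3) that appeared in MDA-MB-231 cells lacking the protein mdig, at places that carried trimethylated H3 lysine 4 (H3K4me3) and no trimethylated H3 lysine 9 (H3K9me3). They were chosen by measured values, from 5 deposited interval lists. An H4K20me3 interval of the knockout cells (KO) on chromosomes 1 to 22 or X became a member when it shared no base with the H4K20me3 list of the WT cells or with the H3K9me3 list of either genotype, and shared at least 1 bp with an H3K4me3 interval of KO. The rule found 2933 members. They are 11.6% of the 25318 H4K20me3 intervals of KO, and 14.4% (13.9% to 14.9%) of the 20357 that were absent from WT, called gained below. Gained intervals made up 80.4% of the KO list, which is the contrast the rule itself used, so nothing is read from it.

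MDA-MB-231 is a human triple-negative breast cancer line. Per the labels' protocols, both lines went through CRISPR-Cas9 handling and were grown with blasticidin, and mdig protein was missing from the KO line. Whether either line is a single clone is not given in the sources used here. Chromatin from each genotype was precipitated once with each of 5 antibodies, against H3K4me3, H3K9me3, H3K36me3, H4K20me3 and mdig itself, whose antibody is named MINA in the labels. That gave 10 ChIP libraries with 1 library per antibody and genotype, so no value below has a replicate and none was tested. The input library is labelled with no genotype and was not used here.

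H4K20me3 is laid down by the methyltransferases KMT5B and KMT5C, which are brought to chromatin by HP1 proteins bound to H3K9me3, and it is best known from silent repeats near centromeres and telomeres. H3K4me3 marks the promoters of active genes and is placed there by SET1 and MLL complexes, while H3K36me3 follows RNA polymerase through transcribed gene bodies. Mdig, also called MINA53 or RIOX2, is an oxygenase with a JmjC domain that hydroxylates a ribosomal protein and has been linked to histone methylation.

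Each list gives only where an interval begins and ends, without a height or a read count. The 10 lists held 7859 intervals (MINA in KO) to 53375 intervals (H3K9me3 in KO). H4K20me3 itself went from 8539 intervals over 67.2 Mb in WT to 25318 in KO. How deeply each library was sequenced is unknown, and a list called from more reads or from better enrichment holds more and wider intervals. A longer H4K20me3 list in KO and more H4K20me3 on chromatin therefore cannot be told apart here, nor can the number of cells that carry a mark and its level in each cell. Ranges in parentheses after a share are 95% Wilson confidence intervals. They cover counting error only and treat intervals as independent, which neighbours are not.

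The members were narrow. Their median width was 2.8 kb, the middle of the distribution ran from 1.8 to 4.8 kb (quartiles), and the whole range from 0.4 to 145 kb. Together they covered 12.5 Mb. Widths under 2 kb were found in 25.9% (24.4% to 27.5%) of them and widths of 10 kb or more in 211, or 7.19% (6.31% to 8.19%). The median was 3.8 kb for the 15047 gained intervals on H3K9me3, 4.0 kb for the 2377 gained intervals with neither mark and 5.6 kb for the 4961 H4K20me3 intervals also found in WT. Widths of 10 kb or more made up 12.5%, 11.9% and 25.3% of those sets. The members' whole distribution lay to the left of the other H4K20me3 intervals, apart from a thin tail of wide ones. A wider interval has more room to meet another list. The rule bars overlap with 3 lists, while the sets on H3K9me3 and also found in WT are defined by an overlap. The contrast with these sets is therefore partly set by the selection.

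**Figure D1:**
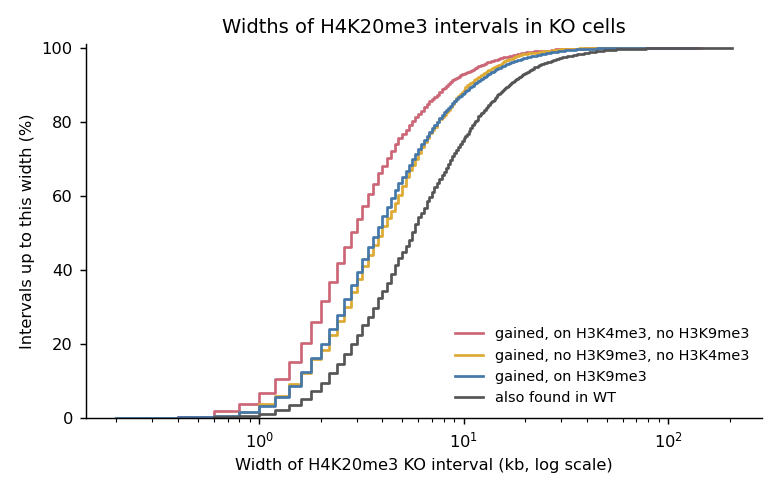
Cumulative distribution of the width of H4K20me3 intervals of KO cells, with width in kb on a log axis and the percent of intervals up to that width on the other. The curve of the members crosses its median at 2.8 kb, left of the gained intervals on H3K9me3 (3.8 kb), those with neither mark (4.0 kb) and those also found in WT (5.6 kb).

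Most members sat inside an H3K4me3 interval rather than beside one. In 1955 of them, 66.7% (64.9% to 68.3%), the member lay wholly within a single H3K4me3 interval of KO, in 209 (7.13%) it contained that interval, and in 769 (26.2%) the 2 overlapped in part. The median distance between the centres was 1.0 kb, and the member covered a median of 39.1% of the H3K4me3 interval (quartiles 25% and 60%). At least 50% of the member lay under H3K4me3 in 87.5% of cases. The rule asks for a single shared base, and 15 members met H3K4me3 by 200 bp only, the smallest step of the file. Those 15 had a median width of 5.0 kb and 40% of them lay on MINA of WT. Just outside the rule were 82 gained intervals away from H3K9me3 that had H3K4me3 within 1 kb and no overlap. Their median width was 3.0 kb and 35.4% lay on MINA of WT. On the other edge of the rule, 4 gained intervals on H3K4me3 were kept out by a 200-bp overlap with H3K9me3.

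The rule keeps H3K9me3 and the WT H4K20me3 off the members, so distances to them are a description. The median distance to the nearest interval of the 3 excluded lists was 36.8 kb, and 342 members (11.7%) had one within 5 kb. Among the members themselves, the next one lay a median of 165 kb away and within 10 kb for 8.05% of them. The spacing of H3K4me3 intervals was not measured beside it, so members are not shown to be scattered or clustered. At the members' centres H4K20me3 of KO covered 100% by definition, and this fell to 10.5% at 5 kb to the left and 10.6% to the right.

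**Figure D2:**
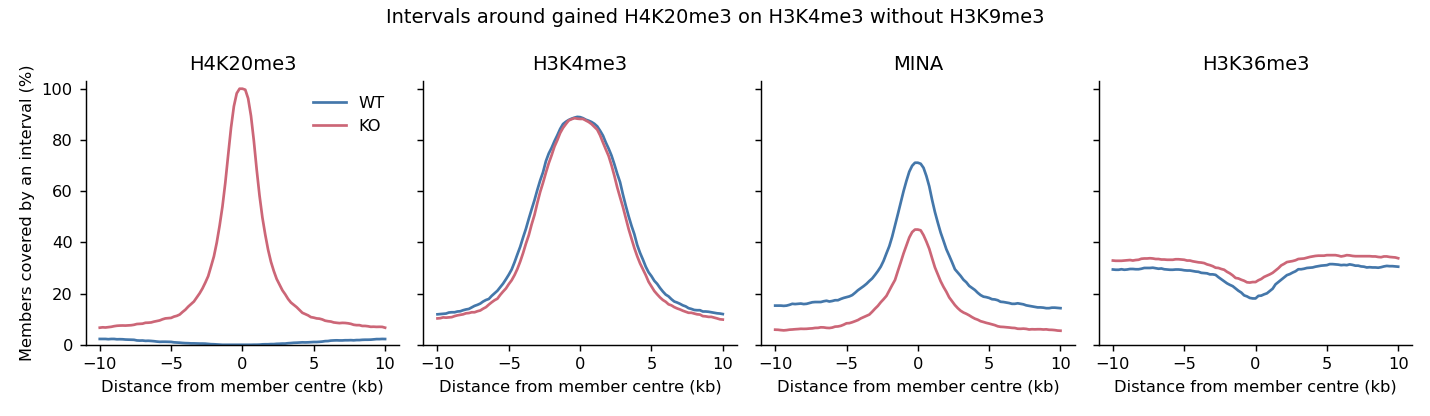
Percent of the 2933 members covered by an interval of WT (blue) or KO (red) at each distance, in kb, from the member's centre, for 4 antibodies. H4K20me3 and the KO H3K4me3 are high by the rule, MINA peaks at 71.1% in WT and 45.0% in KO, and H3K36me3 dips at the centre to 18.1% in WT and 24.5% in KO.

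Nearly all members, like nearly all H3K4me3 intervals of KO, had H3K4me3 in WT. An H3K4me3 interval of WT was met by 2825 members, 96.3% (95.6% to 96.9%), while 108 had H3K4me3 in KO only. Of all H3K4me3 intervals of KO 94.1% met one of WT, and of those without H4K20me3 93.5%, so the members' share is near the background. The H3K4me3 profiles of both genotypes ran close together around the members, with 88.9% of centres covered in WT and 88.2% in KO. The length of the member under H3K4me3 was equal in WT and KO for 67.1%, smaller in KO for 19.5% and larger in KO for 13.4%.

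Seen from the side of H3K4me3, the members touched 2933 of the 17825 KO intervals, 16.5% (15.9% to 17.0%), by coincidence the same number as there are members. Wide H3K4me3 intervals held one more often. Of those under 2 kb 3.59% held a member, of those from 2 to under 5 kb 11.6%, from 5 to under 10 kb 21.3%, and of those of 10 kb or more 28.5% (26.5% to 30.7%). A wider interval has more room for an overlap, so this order is partly set by geometry. The median H3K4me3 interval with a member was 6.4 kb wide in KO, beside 4.8 kb for the 13358 intervals without any H4K20me3 of KO. Because MINA too lay on wide H3K4me3 intervals, MINA at H3K4me3 intervals is also given within these width classes further on.

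Over all chromosomes together, H3K4me3 intervals with a member narrowed by a smaller median factor than the rest. A one-to-one pair is an H3K4me3 interval of WT and one of KO that overlap each other and no further interval. In 2637 such pairs the KO or the WT interval touched a member. Their median width went from 7.0 kb in WT to 6.4 kb in KO. The median KO over WT ratio was 0.938 (0.929 to 0.946), beside 0.894 (0.889 to 0.898) over all 15690 pairs and 0.889 over the 11618 pairs without H4K20me3 of KO. Intervals were narrower in KO in 59.6% of the pairs with a member and wider in 34.4%. A width at least 1.5 times larger in KO was found for 115 pairs with a member, 4.36% (3.65% to 5.21%), near the 3.89% of all pairs. A width at least 1.5 times smaller was found for 236, or 8.95% (7.92% to 10.1%), beside 15.6% of all pairs. Since the rule asks for H3K4me3 in KO, it favours intervals that stayed wide in KO, and this part of the difference was not separated.

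**Figure D3:**
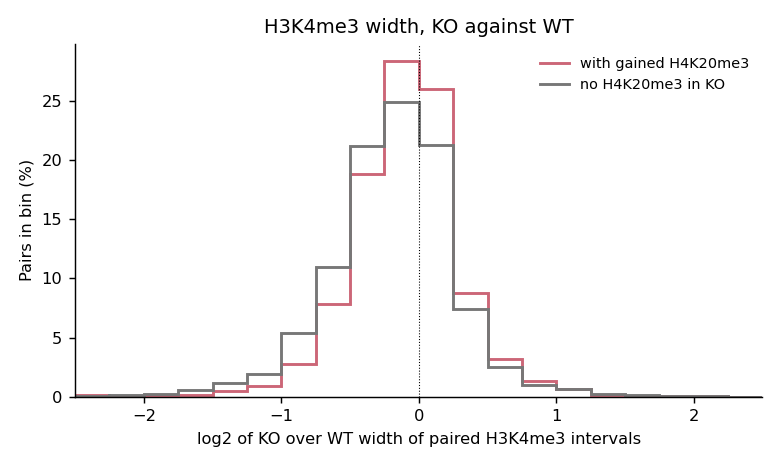
Distribution of the log2 ratio of KO to WT width for one-to-one pairs of H3K4me3 intervals, as the percent of pairs in each bin, for pairs with a member (red, 2637) and pairs without H4K20me3 of KO (grey, 11618). Both lie mostly left of 0, and the red distribution lies further to the right, with median ratios of 0.938 and 0.889 before taking the log.

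Within each class of WT width the ratio was higher with a member than without, which under 5 kb meant widening and above it less narrowing. Pairs with a member had a median ratio of 1.33 under 2 kb (41 pairs), 1.05 from 2 to under 5 kb, 0.929 from 5 to under 10 kb and 0.886 at 10 kb or more. Pairs without a member had 1.00, 0.909, 0.875 and 0.827 in the same classes. These classes were not split by the raised stretches described further on. There the median pair was wider in KO with a member and also without H4K20me3 of KO. Complete loss of H3K4me3 next to a member is nearly barred by the rule. Of the 2809 WT intervals that touched a member 7 had no KO counterpart (0.249%), beside 14.9% of all WT intervals. Of the 2933 KO intervals that touched a member 97 had no WT counterpart, 3.31% (2.72% to 4.02%), beside 5.85% of all KO intervals.

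The 3 pairs whose H3K4me3 widened most at a member went from small WT intervals to moderate ones. On chromosome 5 an interval of 1.0 kb became 4.6 kb at chr5:5287401-5292000, which is 4.60 times wider, around a member of 2.0 kb. The WT H3K4me3 interval did not itself touch this member. An H3K36me3 interval of 4.6 kb in WT and one of 117 kb in KO met it. Other WT intervals under the KO one were not counted, so a widening of H3K36me3 is not shown. On chromosome 6 an interval of 0.8 kb became 3.4 kb at chr6:27278401-27281800 (4.25 times), and on chromosome 1 one of 0.8 kb became 3.0 kb at chr1:202182201-202185200 (3.75 times). The members at the latter places, of 4.4 and 2.6 kb, met no MINA and no H3K36me3 interval in either genotype.

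MINA took no part in the choice of members, and it lay on members about as often as on the H4K20me3 that is most like them and more often than on other H4K20me3. In WT 2296 members, 78.3% (76.8% to 79.7%), lay on a MINA interval. The share was 17.2% for all H4K20me3 intervals of KO, 3.10% for gained intervals on H3K9me3, 11.9% for gained intervals with neither mark and 26.2% for H4K20me3 also found in WT. Among the latter, the 571 that likewise lay on H3K4me3 of KO and away from H3K9me3 met MINA of WT in 81.3% (77.9% to 84.2%) and MINA of KO in 47.5% (43.4% to 51.6%), close to the members. KO cells have no mdig per the labels' protocols, and are taken here as the control of the antibody. In them 1555 members still lay on a MINA interval, 53.0% (51.2% to 54.8%). That share was 9.90% for all H4K20me3 intervals of KO. The KO share gives what the antibody returned without its target, so a member on MINA in both genotypes is not shown to hold mdig.

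By genotype the members fell into 4 classes. MINA intervals of both genotypes were met by 1432 members (48.8%), of WT only by 864 (29.5%), of KO only by 123 (4.19%), and 514 (17.5%) met none. Of all H3K4me3 intervals of KO, 32.3% met MINA of both, 28.3% of WT only, 2.4% of KO only and 37% none. The members' share on MINA of WT only was thus near the background, and the difference lay mainly in both and none. The member's own width did not follow these classes, with medians of 2.8, 2.8, 3.2 and 2.8 kb. The H3K4me3 interval under it did, with medians in KO of 7.6, 6.0, 6.2 and 4.4 kb. H3K36me3 of KO was met by 63.7% of members with MINA in both genotypes, 32.4% with MINA in WT only, 37.4% with MINA in KO only and 16.7% without MINA. Across the members' own width classes the share on MINA of WT stayed between 75.9% and 80.1%, and that on MINA of KO between 50% and 59.7%.

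H3K4me3 intervals are the fitter comparison for MINA, since MINA lay on many of them. Of all H3K4me3 intervals of KO 60.6% met MINA of WT and 34.7% MINA of KO. The shares were 79.0% and 54.2% for those with a member, and 55.5% and 29.8% for those without H4K20me3 of KO. For MINA of WT the gap closed as H3K4me3 became wider, from 26.6% against 6.97% under 2 kb and 59.7% against 38.7% from 2 to under 5 kb, to 84.9% against 80.7% from 5 to under 10 kb and 95.6% against 96.1% at 10 kb or more. For MINA of KO it persisted, with 7.59% against 1.5%, 26.7% against 15.6%, 59.8% against 45.7% and 82.6% against 68.2% in the same order. At the widest H3K4me3 intervals, those with and without a member thus had nearly the same share on MINA of WT, while the share on MINA of KO was higher with a member, a gap that lay outside the raised stretches described further on. Neither difference could be tested.

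**Figure D4:**
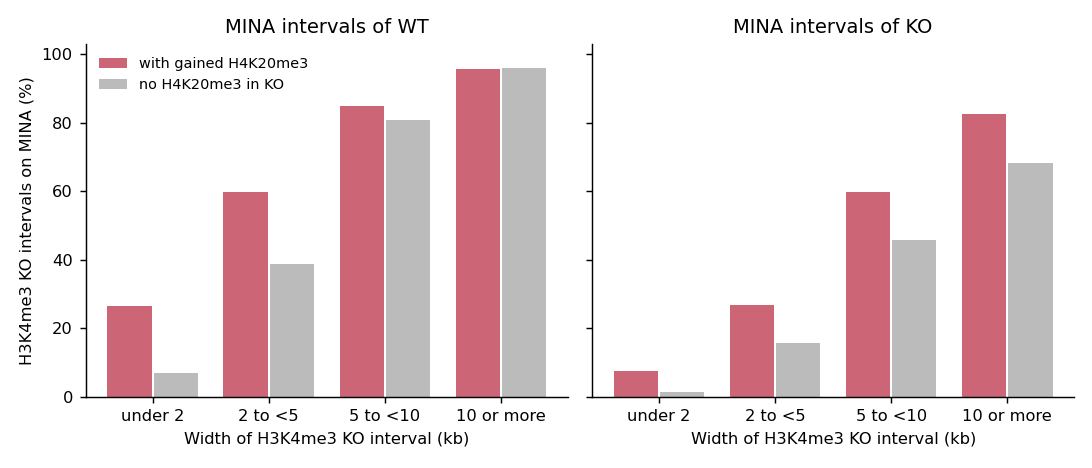
Percent of H3K4me3 intervals of KO that met a MINA interval of WT (left) or KO (right), by the width of the H3K4me3 interval in kb, for intervals with a member (red) and without H4K20me3 of KO (grey). At 10 kb or more the WT bars stand at 95.6% and 96.1%, and the KO bars at 82.6% and 68.2%.

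The same can be read from what became of MINA. Of the 2336 MINA intervals of WT that touched a member, 859 were not found in KO, 36.8% (34.8% to 38.7%), beside 61.2% of all MINA intervals of WT. Among H3K4me3 intervals that met MINA in WT, none was left in KO for 36.6% (34.6% to 38.5%) of those with a member and for 49.9% (48.7% to 51.0%) of those without H4K20me3. The gap lay in the wider classes. It was 35.1% against 46.2% from 5 to under 10 kb and 15.5% (12.6% to 19.0%) against 30.7% (27.9% to 33.6%) at 10 kb or more, while 62.6% and 65.4% from 2 to under 5 kb had overlapping ranges. New MINA intervals were few, with 125 of 1597 KO intervals on members not found in WT, 7.83% (6.61% to 9.25%), beside 16.9% of all.

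Where MINA persisted at a member it was usually narrower. In 1291 one-to-one pairs with a member the median width was 3.6 kb in WT and 3.0 kb in KO, and the median ratio was 0.833 (0.800 to 0.875), beside 0.778 (0.763 to 0.793) over all 5577 pairs. A width at least 1.5 times smaller in KO was seen in 463 of them, 35.9% (33.3% to 38.5%), beside 41.3% of all pairs. A width at least 1.5 times larger was seen in 200, 15.5% (13.6% to 17.6%), beside 13.3% of all.

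H3K36me3, which also took no part in the rule, met 1061 members in WT, 36.2% (34.5% to 37.9%), and 1324 in KO, 45.1% (43.3% to 46.9%). The rise was larger inside the raised stretches described further on, which were cut from H3K36me3. Over all H4K20me3 intervals of KO the shares were 9.33% and 11%. Set against H3K4me3 intervals of the same width, the shares were close from 2 kb up and differed under 2 kb, where 79 intervals held a member (11.4% against 5.77% on H3K36me3 of WT and 12.7% against 6.22% on that of KO). H3K36me3 of WT met 17.5% of H3K4me3 intervals with a member and 20.4% of those without H4K20me3 from 2 to under 5 kb, 56.6% and 59.7% from 5 to under 10 kb, and 84.4% and 83.3% at 10 kb or more. For H3K36me3 of KO the shares were 21.5% and 22.6%, 63.8% and 63.7%, and 88.7% and 86.6% in the same order. Both genotypes had H3K36me3 at 972 members, WT alone at 89 and KO alone at 352, and 1520 had none. KO alone was thus 12% of members and WT alone 3.03%. The shares were 5.92% and 2.54% of all H3K4me3 intervals of KO, and 2.55% and 0.893% of all H4K20me3 intervals of KO. Many overlaps of members with H3K36me3 were at an edge. With at least 50% of the shorter interval required, the shares were 19.3% in WT and 26.3% in KO. Coverage in the profile was lowest at the member's centre, at 18.1% in WT and 24.5% in KO, and stood at 29.1% and 33.2% at 5 kb to the left.

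Existing H3K36me3 at members was seldom lost. Of 1086 H3K36me3 intervals of WT on a member 26 were not found in KO, 2.39% (1.64% to 3.48%), beside 14.5% of all H3K36me3 intervals of WT. Of 1344 KO intervals on a member 129 were not found in WT, 9.60% (8.14% to 11.3%), beside 14.5% of all. In 874 one-to-one pairs the median ratio was 1.04 (1.03 to 1.05), beside 1.01 over all 8613. A width at least 1.5 times larger in KO occurred in 77 of them (8.81%, 7.11% to 10.9%), near the 9.25% of all pairs, and at least 1.5 times smaller in 22 (2.52%, 1.67% to 3.78%), beside 11.1%. The H3K36me3 intervals at members were wide, with a median of 18.4 kb in WT beside 12.6 kb over all pairs. A wide interval has more room to meet a counterpart, and loss was not compared at equal width. The low loss is therefore not shown to be particular to members.

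Members lay on every chromosome from 1 to 22 and on X, and 967 of 1529 bins of 2 Mb held at least 1. Chromosome 1 had the most, 242. Counted per 100 H3K4me3 intervals of KO, so that chromosomes with many promoters do not lead by that alone, chromosome 15 stood highest at 35.4 (222 members), followed by chromosome 7 at 24.6 (239) and chromosome 9 at 24.3 (181). Chromosomes 18 at 9.64 (27 members), 22 at 10.5 (44) and 3 at 11.6 (119) were lowest, and X had 12 (64). The 3 bins with the most members were chr15:40000001-42000000 with 30, chr15:74000001-76000000 with 24 and chr6:30000001-32000000 with 22. In the chromosome 6 bin all 22 lay on MINA of WT and 18 on MINA of KO, whereas in the first chromosome 15 bin 17 of 30 lay on MINA of WT and 21 on MINA of KO.

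Along some stretches of chromosomes the KO lists were longer relative to the WT lists than elsewhere. These stretches were cut from H3K36me3, which the rule did not use, with a hidden Markov model on the KO over WT covered length in 2-Mb bins. The upper state is called raised stretches. They held 588 Mb or 19.2% of the bins, all of chromosome 15, most of chromosome 9 and parts of chromosomes 2, 4, 5, 7, 10, 20 and X. Inside lay 913 members, 31.1% (29.5% to 32.8%), beside 18.2% of all H3K4me3 intervals of KO, which gave 28.2 members per 100 H3K4me3 intervals inside and 13.9 outside. Other gained H4K20me3 was found there too, with 27.7% (27.0% to 28.4%) of that on H3K9me3 and 43.9% (41.9% to 45.9%) of that with neither mark, against 9.43% of H4K20me3 also found in WT. Cut from H3K4me3 instead, the raised stretches held 37.7% of members. Over one-to-one pairs of intervals the summed KO width was 1.04 times that of WT inside and 0.854 outside for H3K4me3, and 0.994 and 0.566 for MINA. For H3K36me3 the difference is set by how the stretches were cut. This holds also at members, of which 25.8% lay on H3K36me3 of WT and 41.7% on that of KO inside. Outside, the shares were 40.8% and 46.7%. Of the H3K36me3 intervals of KO on members, 18.2% inside and 6.28% outside were not found in WT. What part the shift in H3K4me3 and MINA has in the gain of H4K20me3 at members was not tested.

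**Figure D5:**
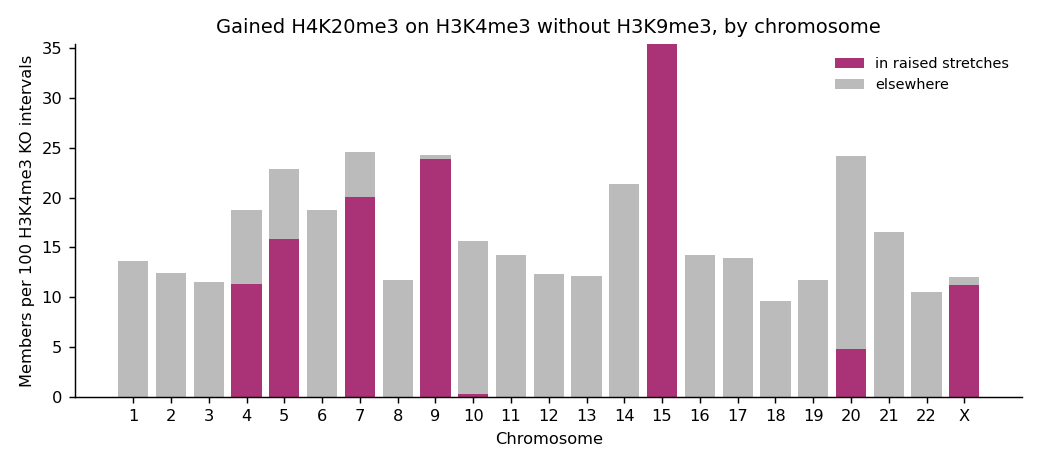
Members per 100 H3K4me3 intervals of KO on each chromosome, with the members in raised stretches in purple and those elsewhere in grey. Chromosome 15 reaches 35.4, all of it in a raised stretch, while chromosomes 14 and 6 reach 21.4 and 18.7 with no raised stretch.

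MINA differed between these places, at members and at H3K4me3 intervals in general. Inside raised stretches 60.8% (57.6% to 63.9%) of members lay on MINA of WT and 58.1% (54.8% to 61.2%) on MINA of KO. Outside, the shares were 86.2% (84.6% to 87.6%) and 50.7% (48.6% to 52.9%). Of the 123 members on MINA of KO only, 107 lay inside, as did 105 of the 125 new MINA intervals. H3K4me3 intervals without H4K20me3 of KO also met MINA of KO only more often inside (7.59%) than outside (0.985%). On chromosome 15 fewer members lay on MINA in WT (43.7%) than in KO (57.7%), and on X 32.8% and 39.1%. Of all H3K4me3 intervals of KO, MINA of WT met 44% inside and 64.3% outside, and MINA of KO 40.4% and 33.4%. Pooled over width, MINA of KO was met outside by 51.8% of H3K4me3 intervals with a member and 29.5% of those without H4K20me3, and inside by 59.4% and 31.8%. At 10 kb or more the gap was seen outside, with 82.3% and 66.3%, and was small inside, with 83.5% and 82.4%. Narrower classes had it in both places. From 5 to under 10 kb the shares were 68% and 51.6% inside and 56% and 44.7% outside. From 2 to under 5 kb they were 33.3% and 18.8% inside and 23.6% and 15% outside. At H3K4me3 intervals of 10 kb or more the loss of MINA outside the stretches was 16.9% (13.4% to 21.1%) against 32.5% (29.6% to 35.6%). Inside, at that width, it was 11.2% (6.67% to 18.2%) against 14.3% (8.85% to 22.2%), where the ranges overlap. Pooled over width, the loss inside was 23.1% (19.8% to 26.7%) against 31.1% (27.9% to 34.5%). By class it was 21.8% (17.9% to 26.3%) against 30.3% (26.2% to 34.7%) inside from 5 to under 10 kb. From 2 to under 5 kb inside it was 41% against 40.7%.

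The H3K4me3 change at members took opposite directions in the 2 places. In raised stretches the median KO over WT width ratio was 1.05 (1.03 to 1.07, 806 pairs), and 57.1% of the pairs with a member were wider in KO. Elsewhere it was 0.892 (0.883 to 0.905, 1831 pairs), and 70.2% were narrower. Pairs without H4K20me3 of KO showed the same split, at 1.03 and 0.865. Raised stretches held 806 of the 2637 pairs with a member and 2740 of all 15690 pairs. The pooled ratios given earlier therefore mix the 2 places in unequal parts. Of the 115 pairs that were at least 1.5 times wider in KO, 80 lay in raised stretches, which is 9.93% of the pairs with a member there, near the 10.8% of all pairs there. MINA pairs at members had median ratios of 1.09 inside and 0.733 outside, beside 1.08 and 0.714 over all MINA pairs.

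The widest members clustered on the short arm of chromosome 6, outside the raised stretches. Chromosome 5 had 31 members of 10 kb or more, chromosome 6 had 30 and chromosome 9 had 26. Between positions 34000001 and 46000000 of chromosome 6, a block chosen after its values were seen, there were 41 members with a median width of 9.8 kb, 20 of them at 10 kb or more, and among them 11 of the 20 widest of all. MINA of WT lay on 36 of the 41 and MINA of KO on 35, beside 78.3% and 53.0% of all members. MINA at the other H3K4me3 intervals of the block was not counted, so these counts are not shown to be particular to members.

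The 5 widest members all lay in that block. The widest, chr6:41355801-41500800, spanned 145 kb and was far larger than the H3K4me3 in it, 3 intervals of 21.0 kb in all in WT and 3 of 21.8 kb in KO. MINA covered 16.2 kb of it in WT and 30.2 kb in KO, and no H3K36me3 interval met it. The next, chr6:37662601-37742600, spanned 80.0 kb over a single H3K4me3 interval of 15.8 kb in WT and 15 kb in KO, with 6.2 kb under MINA in WT and 26 kb in KO. In both of these, MINA covered more of the member in KO than in WT.

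The next widest, chr6:42080601-42135200, spanned 54.6 kb. Its H3K4me3 interval widened from 11.2 kb in WT to 17.2 kb in KO, MINA covered 50.4 kb of it in WT and 28.0 kb in KO, and H3K36me3 covered 31.6 kb in KO and none in WT. The 2 others, chr6:37574401-37621000 of 46.6 kb and chr6:40878401-40918400 of 40 kb, had no H3K4me3 interval in WT, one of 3.8 kb and one of 6.8 kb in KO, and no MINA or H3K36me3 in either genotype. These were also the widest members without MINA, ahead of chr6:35486001-35513800 of 27.8 kb, whose H3K4me3 interval was 5.4 kb in WT and 4.8 kb in KO. The third widest without H3K4me3 in WT, chr10:46987601-47015600 of 28.0 kb, held 2 KO intervals of H3K4me3 of 15.2 kb in all and lay wholly under a MINA interval of 29.0 kb in WT, with no MINA in KO. That place lies in a raised stretch of 2 Mb. In all these wide members H4K20me3 reached well beyond H3K4me3, unlike the median member, which lay inside it.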

How the data were processed

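The authors deposited interval lists, 1 per ChIP library, with a start and an end and no score. Per the submitters' processing notes, reads were aligned with BWA and enriched intervals called with SICER version 1.1 on hg19. The sources used here do not give window or gap settings, scaling for depth or whether the input served as control. Starts and ends lie on a 200-bp grid. The smallest gap within a list is 800 bp, so a wide region can be split or joined by that gap. A merged list of 92233 regions and 69 intervals on chromosome Y were not used. Overlaps of at least 1 bp, widths and Wilson intervals were computed in Python 3.11.15 (numpy 2.4.6, scipy 1.17.1). Ranges of median ratios come from order statistics at the 95% level. Raised stretches came from a 2-state model with a change chance of 0.001 per bin, 1 kb added to each length, and bins with under 20 kb taking their neighbours' state. Regions were named by rule as the 5 widest members, the 3 widest on MINA in both genotypes, without MINA and without WT H3K4me3, the 3 most widened H3K4me3 pairs, the 3 chromosomes highest and lowest and X, and the 3 fullest bins. Members, rule and lists were chosen with earlier results of these data known. Coordinates are 1-based on hg19. An annotation or genome of hg19 was not used here, so no gene or sequence is assigned to a member. Alternatives asked for 50% overlap of the shorter interval, no excluded interval within 5 kb, merging within 5 kb, H4K20me3 of at least 2 kb, and leaving out raised stretches or chromosome 15.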

Additional observations from a re-analysis of the deposited data

How the results depend on the processing

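Of 51 values recomputed under 9 settings, 35 stayed within their counting interval or, for the number of members, within 1.5 times of 2933. The other 16 moved by more. Only the H3K4me3 width ratio could be labelled reversed, and it stayed under 1 in every setting that recomputed it. No setting kept the raised stretches alone, where that ratio was 1.05. Asking for 50% of the shorter interval gave H3K36me3 shares of 19.3% in WT and 26.3% in KO. With no excluded interval within 5 kb, MINA of KO lay on 54.9%. Merging intervals within 5 kb gave 97.0% on H3K4me3 of WT, a width ratio of 0.947, and H3K36me3 shares of 38.1% and 47.3%. Members of at least 2 kb had 38.4% and 47.4%. Leaving out raised stretches gave 86.2% on MINA of WT, 50.7% on MINA of KO, 97.7% on H3K4me3 of WT, a width ratio of 0.892 and 40.8% on H3K36me3 of WT. Without chromosome 15, a setting chosen after seeing the data, MINA of WT lay on 81.1%. Raised stretches cut from H3K4me3 held 37.7% of members. Each setting changes the members or the overlap asked for, and beyond that the cause was not tested. No paired analysis was possible because each antibody and genotype has 1 library. The files give no depth or height, so an interval absent from a list may lie just under its threshold.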

Other observations

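A counterpart of the members existed in WT. Of the 3504 H4K20me3 intervals of KO that lay on H3K4me3 of KO and away from H3K9me3, 571 (16.3%, 15.1% to 17.6%) were also found in WT. Over all H4K20me3 intervals of KO that share was 19.6%. The 571 had a median width of 4.2 kb. H3K36me3 met 47.5% of them in WT and 49.2% in KO, and 6.30% (4.59% to 8.60%) lay in raised stretches. Another 459 gained intervals met both H3K4me3 of KO and H3K9me3. They had a median width of 5.4 kb, 46.2% (41.7% to 50.8%) lay on MINA of WT and 25.5% (21.7% to 29.7%) on MINA of KO, and 34.6% (30.4% to 39.1%) lay in raised stretches.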
